A study of Caenorhabditis elegans with 2 samples.

Results

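The 57 genes described here are the protein-coding genes of the nematode Caenorhabditis elegans that the Ensembl WBcel235 annotation names ceh- with a number, 57 of 19973 nuclear protein-coding genes. The POU genes ceh-6 and ceh-18 and the Hox and Hox cofactor genes ceh-13, ceh-20, ceh-40 and ceh-60 were left out. Binding of CEH-18, itself a POU homeodomain transcription factor, was profiled by chromatin immunoprecipitation and sequencing (ChIP-seq) in whole hermaphrodite late embryos of strain OP533. The strain carries unc-119(tm4063) III and the integrated transgene wgIs533, which supplies CEH-18 with a C-terminal GFP-FLAG tag, and the tag was precipitated with an antibody against GFP per the description, while the antibody field names ceh-18. Embryos were taken 3 h after egg bleaching, and 2 biological replicates formed the only group, so no condition was compared with another.

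Homeobox genes encode transcription factors that bind DNA through a homeodomain, and many specify the fate or the terminal identity of embryonic cells, above all neurons and muscles. The ceh genes outside the POU and Hox groups fall into several classes. CUT class proteins carry a cut domain beside the homeodomain, sine oculis proteins an extra domain of that name and LIM proteins LIM zinc fingers, while the paired-like (PRD-like) and NK-like genes (the NK genes and their relatives in the ANTP class) are named after Drosophila relatives. The class of each gene was taken from textbook knowledge, and 20 genes whose class was less certain were left unassigned.

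Each peak is given by its signal, the height that the authors' peak caller deposited, on a scale that is not stated. The thresholded list holds the 2575 peaks that passed the authors' reproducibility step (the irreproducible discovery rate, IDR), with signals from 114 to 1223 and a median of 172. The longer pooled list of 28466 entries holds peaks and background by its own title, with a median signal of 38.2. Signals of the replicates have their own scales, with medians of 21.2 in replicate 1 (30000 entries) and 24.4 in replicate 2 (21337 entries). The deposited lists hold no read counts, so depth and counting error are unknown, and the 2 replicate values stand in their place. In whole embryos, strong binding in a few cells and weak binding in many cannot be told apart.

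The strongest promoter summits were at ceh-38 and ceh-39, both of the CUT class, and the sequences under their summits are shown because these were the only thresholded summits inside a promoter window of the 57 genes. A promoter window spans the 1000 bp before a gene's 5′ end and the first 200 bp after it. Sequences are RefSeq's, on the WBcel235 assembly (ce11), each on the strand of its gene. Capitals mark matches, on either strand, to the 7 words searched: GAGAGA, the octamer ATGCAAAT, its short form ATGCA, the homeodomain word TAATTA, the GC box GGGCGG, the cut-type word ATCGAT and the E-box CANNTG. For ceh-38 the summit lies in a 5′ untranslated exon, so 29 bases around it (II:6951583-6951611) are shown, then the 150 bases before the gene's 5′ end (II:6951376-6951525). For ceh-39, 151 bases centred on the stronger summit (X:1856231-1856381) are followed by 151 bases centred on a weaker second summit (X:1856433-1856583).
ceh-38 summit: agtatggagtattgtgagtgtcagacata
ceh-38 upstream: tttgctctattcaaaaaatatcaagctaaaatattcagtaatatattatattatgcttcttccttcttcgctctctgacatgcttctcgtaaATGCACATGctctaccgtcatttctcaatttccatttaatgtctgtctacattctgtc
ceh-39 summit: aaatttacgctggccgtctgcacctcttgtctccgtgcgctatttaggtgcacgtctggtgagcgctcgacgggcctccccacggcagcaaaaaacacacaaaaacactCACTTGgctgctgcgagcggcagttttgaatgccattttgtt
ceh-39 second summit: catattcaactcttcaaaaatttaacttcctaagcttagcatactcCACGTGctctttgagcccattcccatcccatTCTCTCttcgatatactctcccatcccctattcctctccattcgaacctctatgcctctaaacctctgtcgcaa

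Within 75 bp of these strongest summits the E-box was the only word of the 7 found, once at each gene (at ceh-38 outside the bases shown). It is a common word, found that close to 51.7% of all thresholded summits. The ceh-38 upstream stretch held ATGCA overlapping an E-box, and the E-box of the stronger ceh-39 summit was CACTTG. The second ceh-39 summit did have GAGAGA beside it, as TCTCTC at bases 78 to 83 with the summit at base 76. For comparison, summits below the threshold in the promoter windows of ceh-74 (V:14177769-14177919) and ceh-32 (V:11705510-11705660), outside untranslated regions, are shown too. That of ceh-74 had GAGAGA at 2 places, both as TCTCTC, and that of ceh-32 had a GC box, as CCGCCC.
ceh-74 summit: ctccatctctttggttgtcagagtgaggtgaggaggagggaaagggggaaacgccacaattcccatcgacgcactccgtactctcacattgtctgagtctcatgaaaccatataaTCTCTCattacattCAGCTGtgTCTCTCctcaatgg
ceh-32 summit: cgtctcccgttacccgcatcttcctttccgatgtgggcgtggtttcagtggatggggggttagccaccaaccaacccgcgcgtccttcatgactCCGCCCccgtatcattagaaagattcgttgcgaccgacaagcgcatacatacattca

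A thresholded summit stood in the promoter window of 2 of the 57 genes (3.51%), ceh-38 and ceh-39, against 7.2% of all protein-coding genes. The peak at ceh-38, one of the CUT genes that act together in pan-neuronal gene expression, covered II:6951510-6951660 with its summit 71 bp downstream of the gene's 5′ end. Its signal was 117 in replicate 1, 144 in replicate 2 and 265 in the pooled list, where it ranked 503. Both replicates placed it far above their own median signal. The annotation gives ceh-38 (WBGene00000459, II:6951526-6955409) 11 separate transcript starts within 544 bp, so the summit is upstream of some of them. The divergent gene malt-1 has its promoter window over the same summit.

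At ceh-39, an X-linked gene whose dose is one of the signals that set sexual fate in the embryo, the peak covered X:1856064-1856547. The summit lay 134 bp upstream of the gene (WBGene00000460, X:1853874-1856172) in intergenic sequence. Its signal was 94 in replicate 1, 112 in replicate 2 and 206 in the pooled list (rank 894). The second summit, 336 bp upstream, had a pooled signal of 85.4 and stayed below the threshold. It overlapped the same peak in each replicate, so the replicates give it no value of its own. A further thresholded summit of signal 270 lay 2622 bp upstream of ceh-39, within 200 bp of a transfer RNA (tRNA) gene and nearer to the 5′ end of T26C11.8.

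Giving every summit to the closest protein-coding 5′ end, up to 5000 bp away, left 3 of the 57 genes (5.26%) with a thresholded summit, against 9.63% of all protein-coding genes. The gene added by this rule was ceh-5, an NK-like gene. Its summit lay 1719 bp upstream, on chromosome I (9725208 to 9725691), with signals of 120 in replicate 1, 85.7 in replicate 2 and 208 in the pooled list. The order of the replicates was therefore opposite to that at ceh-38 and ceh-39. That summit is inside other genes, in a 3′ untranslated exon of eat-16 and within the span of ocrl-1, which also overlaps ceh-5 itself, so which of these genes it belongs to cannot be told from its position. Among the 1287 strongest thresholded peaks the same 3 genes (5.26%) had one by this rule, against 5.11% of all genes. The promoter window held 2 (3.51%), against 3.78%, so both shares were close to those of all genes there. Only ceh-38 had a thresholded summit within its own body, 1 of 57 genes (1.75%), against 3.07% of all genes.

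Over each gene's body and the intergenic sequence up to the next protein-coding gene upstream, 4 of the 57 genes (7.02%) held a thresholded summit, against 13% of all genes. Beside ceh-38 and ceh-39 these were ceh-24, an NK-like gene, and ceh-58, named here after their values were seen. For ceh-24 the summit (signal 131 in replicate 1, 101 in replicate 2 and 229 in the thresholded list) lay 4569 bp upstream and was nearer to swan-1. For ceh-58 there were 2, at 12854 and 15275 bp upstream (signals 188 and 186), both nearer to ztf-27. These stretches summed to 374 kb for the 57 genes and held 6 thresholded summits, or 16 per Mb, against 30.6 per Mb over all protein-coding genes, where neighbouring genes can count the same summit. For pooled summits the densities were 331 per Mb for the 57 genes and 298 per Mb for all genes.

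Several genes had their strongest summit just below the lowest thresholded signal of 114. Closest was ceh-14, which encodes a LIM homeodomain factor of several neuron types, with a signal of 112 in its 3′ untranslated region, 4506 bp downstream of the 5′ end (60.7 in replicate 1 and 52.3 in replicate 2). That summit was nearer to another gene's 5′ end, so neither rule assigned it to ceh-14. The strongest summit assigned to ceh-14 had 52.4, 1880 bp upstream, and its promoter window held none. At ceh-22, an NK-like gene of pharyngeal muscle, a summit of signal 104 lay in a coding exon 740 bp downstream (48.4 in replicate 1 and 54.1 in replicate 2). At ceh-100 a signal of 101 lay 766 bp upstream, in a 5′ untranslated exon of the divergent gene lips-15 (56.4 in replicate 1 and 59.5 in replicate 2). That summit was also in the promoter window of lips-15, and the nearest-end rule did not assign it to ceh-100. At ceh-34, a sine oculis gene required for pharyngeal neuron identity, the signal was 96.3 at 49 bp downstream (40.1 in replicate 1 and 55.7 in replicate 2). After these 4 the signals fell to 87.6 and below. The plot of strongest promoter summits by class shows those that lie in a promoter window. On the ce10 build the authors' thresholded list reached down to a signal of 92.7 and held 3485 peaks. With that limit on the ce11 pooled list (an alternative chosen after seeing the data, 3486 peaks), ceh-34 and ceh-100 joined ceh-38 and ceh-39 in the promoter window, 4 of 57 genes against 9.5% of all genes. By the closest 5′ end 5 genes qualified, ceh-22 and ceh-34 being added, against 12.4% of all genes.

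**Figure D1:**
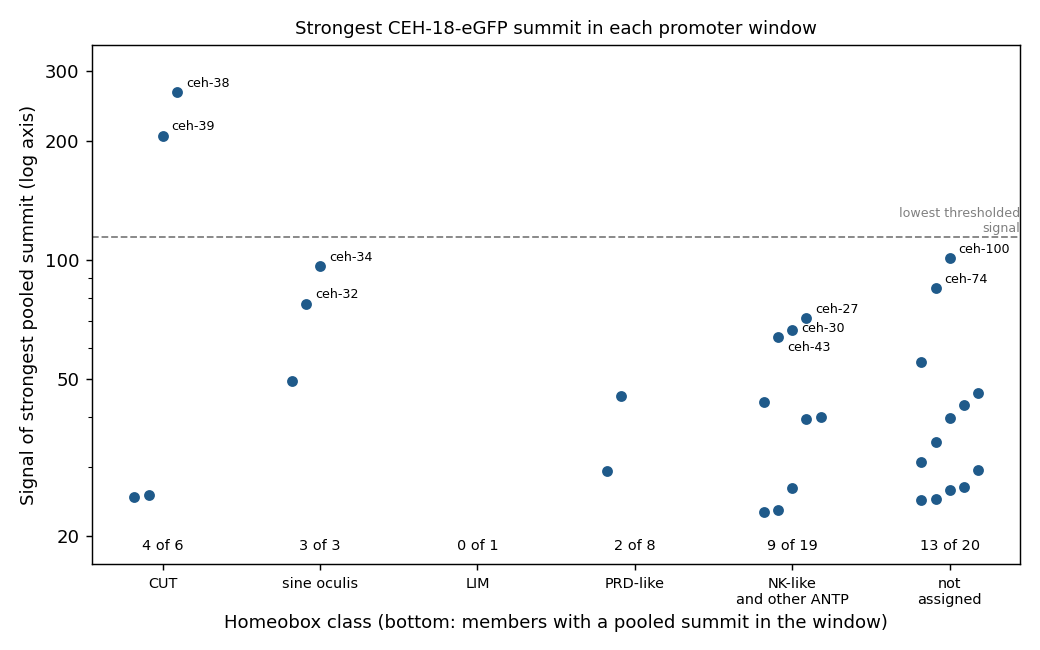
Signal of the strongest pooled summit in each gene's promoter window (log axis, arbitrary units), by homeobox class, 1 point per gene, with genes above 60 named. The dashed line is the lowest thresholded signal (114), and only ceh-38 and ceh-39, both of the CUT class, are above it.

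Over the whole pooled list, in which weak entries outnumber strong ones, 31 of the 57 genes (54.4%) had a summit in the promoter window, against 35.1% of all protein-coding genes, and 44 (77.2%) were the nearest 5′ end of a summit, against 52.7%. Within gene bodies 32 of the 57 genes (56.1%) had a summit, against 37.3%, and over body and upstream intergenic sequence 42 (73.7%), against 53.9%. In replicate 1's own list 30 of 57 genes had a promoter summit, against 35.3% of all genes, and in replicate 2's list 23, against 31.7%. By the nearest end the counts were 43 in replicate 1, against 55.7% of all genes, and 38 in replicate 2, against 47.8%. In each list taken whole, the share of the 57 genes was above that of all genes. Of the 31 genes in the pooled list, 24 had a promoter summit in replicate 1's list and 20 in replicate 2's. The matching share over all genes was not counted, so these 2 numbers are descriptive only. The 31 strongest summits ranged from 23.1 (ceh-16, the engrailed homologue of epidermal seam cells) to 265 (ceh-38), with a median of 40, against a median of 52.6 over the 7020 genes of the genome with such a summit. At -log10 q of at least 2, 6 of 57 genes (10.5%) had a promoter summit, against 12.5% of all genes, and by the nearest end 8 (14%), against 16.7%. Those with a promoter summit were ceh-32, ceh-34, ceh-38, ceh-39, ceh-74 and ceh-100.

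How the 57 genes stood against all genes turned with the number of peaks kept, at lengths chosen after seeing the data. Among the 5000 strongest pooled peaks 6 genes (10.5%) had one, against 12.5% of all genes, and among the 10000 strongest 11 (19.3%), against 19.5%. With 15000 peaks it was 18 genes (31.6%), against 24.6%, and with 25000 it was 25 (43.9%), against 32.7%. With 4 times the thresholded number of peaks, 11 genes (19.3%) had a promoter summit, against 19.9% of all genes. By the nearest end 20 (35.1%) had one, against 28.4%, so at this length the 57 genes were above all genes by that rule only. In replicate 1 the 57 genes were at 12.3% and all genes at 11.4% with 5000 peaks, at 15.8% and 18% with 10000 and at 29.8% and 23% with 15000. In replicate 2 they were at 8.77% and 12.9% with 5000 peaks and at 22.8% and 20.2% with 10000. With 15000 peaks or more the share of the 57 genes was above that of all genes in each list. Below that length some shares were close. The order at 10000 pooled peaks and at 5000 peaks of replicate 1 would change with 1 gene more or fewer. Of the 29 genes whose strongest promoter summit was below the threshold, 14 (48.3%) had its pooled peak overlapped by a peak of both replicates, against 61.4% of 5582 genes over the whole genome. The median signal of these summits was 39.9 for the 29 genes and 43.8 for the 5582. Many of the weak entries are thus not shared by the replicates, and how many are background was not tested.

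**Figure D2:**
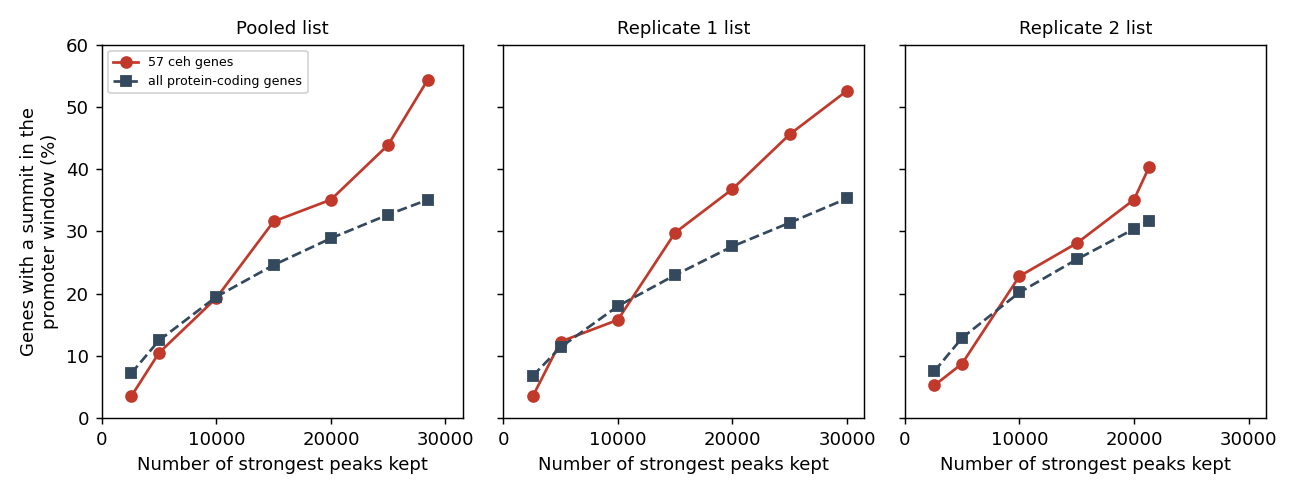
Share of genes with a summit in the promoter window (%) against the number of strongest peaks kept, for the 57 ceh genes (red) and all protein-coding genes (dark), in the pooled list and in each replicate's list. Among the 2575 strongest pooled peaks the ceh genes stand at 3.51% and all genes at 7.2%, and over the whole pooled list at 54.4% and 35.1%.

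The lengths of upstream sequence differed as well. The median distance from the 5′ end to the next protein-coding gene upstream was 1750 bp for the 57 genes and 937 bp for all genes, with quartiles of 444 and 4272 bp for the 57 genes and 315 and 2731 bp for all genes. The 44 genes with a nearest pooled summit had a median upstream length of 2040 bp and the other 13 genes had 1431 bp, and over all genes the medians were 1117 bp with such a summit and 809 bp without. In the fixed promoter window the order was opposite, at 1507 bp for the 31 genes with a summit and 2012 bp for the 26 without, and over all genes at 813 bp with and 998 bp without. The part of this length in the counts was not tested. To the nearest thresholded summit, wherever it lay, the median distance was 15452 bp from the 57 genes' 5′ ends and 17642 bp from those of all genes, and 6 genes (10.5%) had one within 5000 bp, against 21% of all genes.

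By class, the CUT genes had the highest share of thresholded promoter summits, 2 of 6 (33.3%), against 7.2% of all genes. All 6 were the nearest 5′ end of some pooled summit, against 52.7% of all genes. The same held for all 3 sine oculis genes and for the LIM gene. A further CUT gene, ceh-44, does not carry that name in the Ensembl annotation and is not among the 57. Beyond ceh-38 and ceh-39, the strongest was at ceh-48, a CUT gene expressed across the nervous system, whose summit of signal 87.6 lay 2234 bp upstream (43.4 in replicate 1 and 57.8 in replicate 2). The other CUT genes had weaker ones. For ceh-21 the promoter summit had a signal of 25.4, and an intronic summit 1980 bp downstream had 57.9. The promoter summit of ceh-41 had 25.2, and the only summit of ceh-49, 3878 bp upstream, had 37.7. A class of 6 genes, known to have this result when the classes were drawn up, allows no more than these counts.

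All 3 sine oculis genes had a pooled summit in the promoter window, against 35.1% of all genes. None passed the threshold there, against 7.2% of all genes with a thresholded one. Beside ceh-34, the summit of ceh-32, a gene of head development, had a pooled signal of 77.5 at 185 bp upstream (46.9 in replicate 1 and 28.1 in replicate 2). At ceh-33 it was 49.4 at 871 bp upstream (24.8 in replicate 1 and 24.6 in replicate 2), in a coding exon of C10G8.8. A stronger summit of 72.4 lay 1511 bp downstream of the ceh-33 5′ end, in the intergenic sequence towards ceh-34, whose 5′ end is 5.09 kb away. The 3 genes were the nearest 5′ end of 4 or more pooled summits each, with 5 at ceh-32, 4 at ceh-33 and 4 at ceh-34. Such numbers were not counted over all genes. The median upstream length was 3616 bp for these 3 genes and 937 bp for all genes.

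The NK-like and other ANTP genes had a pooled promoter summit in 9 of 19 cases (47.4%), against 35.1% of all genes. The nearest-end rule gave 13 (68.4%), against 52.7%. At ceh-27 the summit lay 29 bp upstream with a pooled signal of 71.3 (39.7 in replicate 1 and 33.8 in replicate 2). At ceh-30, a BarH relative that protects male-specific neurons from death, it lay 90 bp downstream with 66.4 (53.4 in replicate 1), and replicate 2 had no peak there. At ceh-43, the distal-less homologue, it lay 997 bp upstream with 64 (46.1 in replicate 1 and 30 in replicate 2), just inside the window, and 11 pooled summits stood along its body and its 12889 bp of upstream sequence. The other promoter summits of this class, those of ceh-2, ceh-5, ceh-9, ceh-16, ceh-22 and ceh-62, had signals from 23.1 to 43.8. Replicate 1 listed a promoter summit for 9 of the 19 genes, against 35.3% of all genes, and replicate 2 for 3 of 19, against 31.7%.

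Paired-like genes had pooled promoter summits in 2 of 8 cases (25%), against 35.1% of all genes. The nearest-end rule gave 6 (75%), against 52.7%. Replicate 1 listed a promoter summit for 2 of the 8 genes, against 35.3% of all genes, and replicate 2 for 4, against 31.7%. At ceh-8 the promoter summit, 36 bp upstream, had a pooled signal of 45.3 (replicate 1 had 23.4 and replicate 2 had 21.6), and a summit in the gene's 3′ untranslated region, 5266 bp downstream, had 66. The latter lay in the promoter window of col-63, and neither rule assigned it to ceh-8. At ceh-54 the promoter summit had 29.2, 996 bp upstream, and an intronic summit 300 bp downstream had 43.6. The strongest summit given to ceh-17, a Phox2 homologue of a few neuron classes, lay 2121 bp upstream with 64.6 (45.2 in replicate 1 and 26.6 in replicate 2), in a coding exon of col-52. For ceh-10, ceh-36 and ceh-45 the strongest nearest summits had signals of 38.6, 32.5 and 27.6, and ceh-37 and ceh-53 had none under either rule.

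Among the 20 genes with no class assigned, 13 (65%) had a pooled promoter summit, against 35.1% of all genes. The nearest 5′ end of a pooled summit was that of 15 (75%), against 52.7%. After ceh-100 the strongest was at ceh-74, where the summit whose sequence is shown lay at V:14177844 upstream of the gene, in an intron of cest-2.3, with a pooled signal of 84.9 (replicate 1 had 37.5 and replicate 2 had 38.6). At ceh-83 the signal was 55.2 at 66 bp upstream (32.4 in replicate 1 and 24 in replicate 2). At ceh-79 the nearest summit, 1259 bp upstream, had 70.4 (31.5 in replicate 1 and 43.4 in replicate 2). In the promoter windows of the other genes of this set, signals did not pass 46, the value at ceh-93.

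No pooled summit was assigned by either rule to 11 of the 57 genes (19.3%), against 43.5% of all genes. The 11 were ceh-7, ceh-12, ceh-19, ceh-24, ceh-28, ceh-37, ceh-53, ceh-63, ceh-75, ceh-84 and ceh-88. Of these, ceh-53 had 1 pooled summit within its body and ceh-88 had 3, each closer to another gene's 5′ end. In the upstream intergenic sequence ceh-24 had 2 and ceh-53 had 1. At the other end, ceh-22 and ceh-32 were each the nearest 5′ end of 5 pooled summits, and 9 genes had 4 or more. The share of all genes with that many was not counted, so these numbers are descriptive only. The position map shows how summits lay around the 46 genes that had any.

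**Figure D3:**
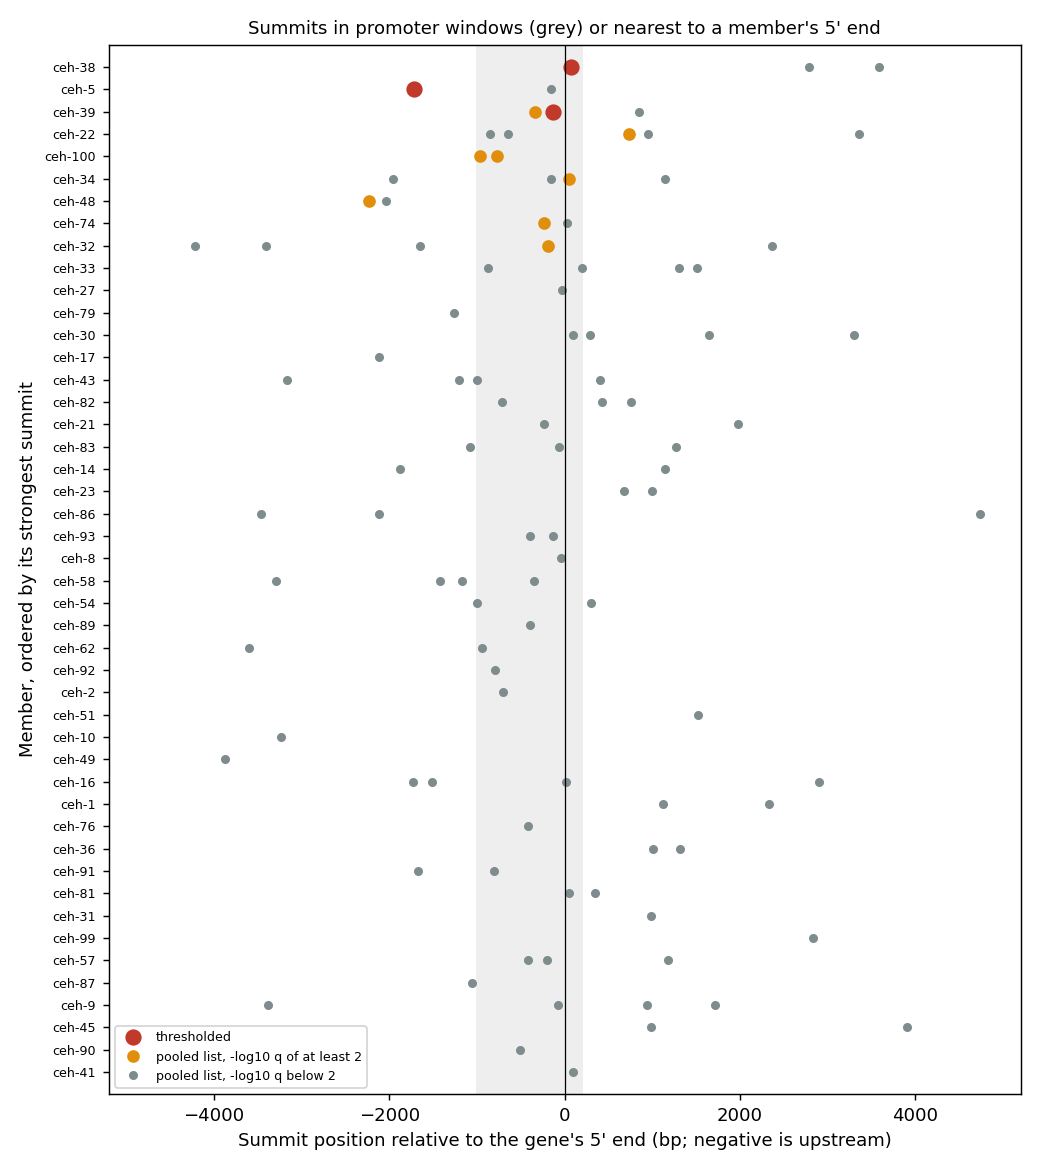
Position of each of 102 summits relative to the 5′ end of its member (bp, negative upstream), for the 46 genes with a summit in the promoter window (grey band) or as nearest 5′ end, ordered from the strongest summit at the top. Red points are thresholded (ceh-38, ceh-5 and ceh-39), orange points have -log10 q of at least 2, and the small grey points, below 2, are most of the map.

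Not all of these summits were seen in both replicates. Of the pooled peaks that hold the 31 strongest promoter summits, 25 (80.6%) were overlapped by at least 1 bp by a peak of replicate 1, 21 (67.7%) by a peak of replicate 2 and 16 (51.6%) by both. Over all genes with such a summit 85.3% were overlapped in replicate 1, 80.3% in replicate 2 and 69.2% in both. The pooled list was made from both replicates, so these overlaps are not independent of it. Of the 102 summits in the position map, 53 had a peak in both replicates, and where several shared a replicate peak the strongest was kept for the plot of replicate signals.

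**Figure D4:**
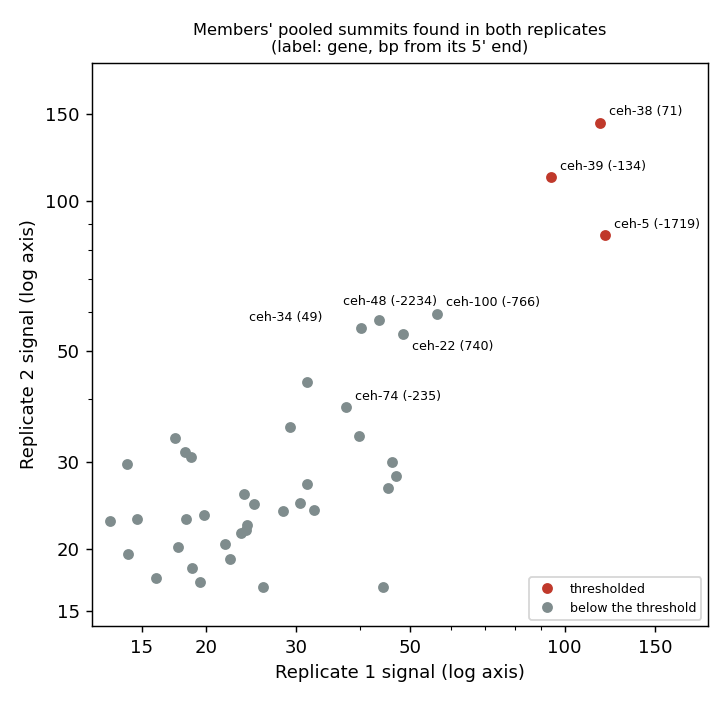
Signal in replicate 2 against replicate 1 (log axes, arbitrary units) for 40 pairs of replicate peaks at 30 genes, with the gene and the distance from its 5′ end (bp) at the strongest. The 3 thresholded summits (red) lie at 85.7 or above in both replicates, and the rest (grey) at 59.5 or below in both.

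Of the 31 strongest promoter summits, 25 lay upstream of the 5′ end. Most of the window is upstream (1000 bp, against 200 bp downstream), and the share over all genes was not counted. By annotation 18 (58.1%) were intergenic, against 71% over all genes, and 5 (16.1%) lay in 5′ untranslated exons, against 7.19%. Coding exons held 4 (12.9%), against 11.5%, introns 3 (9.68%), against 7.61%, and a 3′ untranslated exon 1 (3.23%), against 2.74%. The 5 in 5′ untranslated exons included those of ceh-38, ceh-34, ceh-30, ceh-16 and, in lips-15, ceh-100. GAGAGA was within 75 bp of 5 of the 31 summits (16.1%), against 23.6% of the strongest promoter summits of all genes and 45.2% of all thresholded summits. These 5 were at ceh-43, ceh-74, ceh-83, ceh-89 and ceh-100, and the thresholded summit of ceh-5 had the word too. The octamer ATGCAAAT, the classical POU site, was at none of the 31, against 1.5% over all genes. ATGCA was at 6 (19.4%), against 23.5%, TAATTA at 1 (3.23%), against 4.81%, GGGCGG at 3 (9.68%), against 8.4%, ATCGAT at 2 (6.45%), against 6.79%, and the E-box at 10 (32.3%), against 49%. The median GC content of these 151-base windows was 41.7% at the 31 summits, 42.4% over all genes and 47.7% at thresholded summits.

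The whole promoter windows were searched as well, with or without a summit. The octamer was in 7 of 57 windows (12.3%), against 10.5% of all promoter windows, and ATGCA in 49 (86%), against 84.5%. GAGAGA was in 35 (61.4%), against 50.9%, TAATTA in 22 (38.6%), against 47.3%, GGGCGG in 17 (29.8%), against 19.2%, and ATCGAT in 14 (24.6%), against 34.7%. The E-box was in all 57, against 98.6%, and is contained in most sequences of this length. ATGCAAAT contains ATGCA, so these counts overlap. The median GC content was 36.2% in the 57 windows and 35% in all.

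Of 30 further homeobox genes that carry other names, of several classes, 2 (6.67%) had a thresholded promoter summit, against 7.2% of all protein-coding genes. They were irx-1, an Iroquois gene, with a signal of 135 at 228 bp upstream, and lin-11, a LIM gene of vulval cells and neurons, with 118 at 93 bp downstream. In the pooled list 15 (50%) had a promoter summit, against 35.1% of all genes, and 25 (83.3%) were the nearest 5′ end of one, against 52.7%. Their median upstream length was 5702 bp.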

How the data were processed

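Peak lists of CEH-18-eGFP ChIP-seq in 2 biological replicates, 1 group, were analysed. The labels name no separate cultures, so the replicates' likeness may in part be technical. According to the notes deposited beside them, the narrowPeak lists (1 for each replicate, 1 pooled, and 1 derived from these by IDR) go back to read alignments and a further file, not analysed here. The aligner and peak caller used by the authors were not given in the sources used here. For each peak, signal and -log10 q are as deposited by the authors, and signal was used to rank, filter and describe peaks within a list. Read depth is unknown. All 2575 thresholded ce11 peaks were in the pooled list. The ce10 thresholded list gave a count and the lowest signal only.

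The ce11 lists were annotated with WBcel235 (the same build, no peak past a chromosome end) and Ensembl release 115. Gene 5′ ends are those of gene records, 1-based, and 12 mitochondrial genes were left out. Summits were assigned to promoter windows, and to the nearest 5′ end within 5000 bp. With 1 group, no test was made: counts stand beside the same share of all protein-coding genes. The replicate value of a summit is the strongest replicate peak that overlaps its pooled peak by 1 bp or more.

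The 57 genes, classes, words and rules were chosen with earlier results of these data known. Named are genes with thresholded summits, the 5 strongest below the threshold and the strongest of each class, with others added, after their values were seen, to complete each class. All 200 simulated summits planted near known genes were assigned as planted. Alternatives were other windows, 5′ ends, thresholds, single replicates and list lengths. Python 3.11.15, numpy 2.4.6, pandas 2.3.3 and matplotlib 3.10.9 were used.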

Additional observations from a re-analysis of the deposited data

How the results depend on the processing

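In the promoter window 2 or 3 genes had a summit under each other window, 5′ end, overlap and stricter threshold tried (3.78% to 10.2% of all genes), and ceh-38 and ceh-39 were among them each time, with ceh-5 added by the widest window. With replicate 1's 2575 strongest peaks alone the count was 2 (6.8% of all genes), and with replicate 2's it was 3 (7.53%), ceh-100 being added. The nearest-end rule gave 3 or 4 genes under other limits, 5′ ends, competing genes and the stricter threshold (5.11% to 10.4% of all genes), ceh-22 being added with transcript 5′ ends. Under the stricter threshold the 2 shares were nearly the same, 5.26% of the 57 genes and 5.11% of all genes. With either replicate alone the nearest-end count was 3 (9.41% of all genes in replicate 1 and 9.63% in replicate 2). With the lowest ce10 signal as the limit, chosen after seeing the data, the counts were 4 in the promoter window (9.5% of all genes) and 5 by the nearest end (12.4% of all genes). The counts from the pooled list followed its length. With 4 times as many peaks as the thresholded list holds, 11 genes (19.3%) had a promoter summit, against 19.9% of all genes, and 20 (35.1%) were a nearest end, against 28.4%. At -log10 q of at least 2 these counts were 6 (10.5%) and 8 (14%), against 12.5% and 16.7% of all genes. With either replicate alone they ran from 23 to 30 (31.7% to 35.3% of all genes) and from 38 to 43 (47.8% to 55.7% of all genes). The fewer peaks kept are the construction of these alternatives. No paired analysis was possible because the samples form 1 group. Without read counts, the precision of a single signal cannot be given.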

Other observations

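Several of the 57 genes neighbour each other. The CUT genes ceh-41, ceh-21 and ceh-39 lie in this order on X, all on the minus strand, with 4.06 kb between the first pair of 5′ ends and 3.44 kb between the next. The upstream-most, ceh-39, had the thresholded promoter summit, with a signal of 206, while the promoter summits of ceh-21 and ceh-41, with 103 bp or less of upstream sequence each, had 25.4 and 25.2, and both overlapped peaks of replicate 2 only. The genes ceh-81, ceh-82 and ceh-83 follow each other on chromosome II, with 1.83 and 4.3 kb between their 5′ ends. Each had a pooled promoter summit, at signals of 30.8, 24.8 and 55.2. Those of ceh-81 and ceh-82 both lay in coding sequence of ceh-81, and that of ceh-82 overlapped a peak of replicate 1 only. A stronger summit, with 62.2, lay in a coding exon of ceh-82. The nearest thresholded summit was 210302 bp or more from each 5′ end.

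Across chromosomes, 8 of 15 genes on X, 8 of 13 on II, 7 of 12 on V, 4 of 6 on III and 4 of 7 on I had a pooled promoter summit, and none of 4 on IV. Over all protein-coding genes the shares were 38.1% on X, 34.7% on II, 24.5% on V, 46.5% on III, 46.7% on I and 30.1% on IV.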
